A study of Rattus norvegicus with 4 samples.

Results

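The genes described here are collapsin response mediators, tubulins and 1 axonemal dynein of the rat testis, read while vitamin A was given back to deficient animals. The list holds 9 genes, Dpysl2, Dpysl3, Dpysl4, Crmp1, Tuba1a, Tuba4a, Tubb3, Tubb5 and Dnah8. It was selected in part on these same arrays, because Dpysl4, Tuba4a and Dnah8 were strongly lower after retinol, so the low values of these 3 describe how they were chosen and test nothing. Of the 9, 7 had at least 1 probe set annotated with that gene alone, 9 probe sets in all, out of 4736 genes measured in that way. Tubb3 and Tuba1a had none, and Tuba1a is named only on probe sets that it shares with other alpha-tubulin genes.

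Rats were fed a diet lacking vitamin A from the age of 20 days, and 9 weeks later they were given retinol, the alcohol form of the vitamin. Total testis was profiled on Affymetrix Rat Genome U34 arrays, on which a group of short oligonucleotides, the probe set, reads each transcript. There were 4 groups with 1 deposited sample each, deficient testis without retinol (VAD, 0 h) and deficient testis 4, 8 and 24 h after it. All 4 groups therefore share the deficient diet, and no group of rats on a sufficient diet is part of the series as analysed here. The sources used here do not give the strain, the retinol dose or the number of animals behind a sample.

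The deposited values are ratios to a reference that the labels do not name. The median ratio was 0.995 in VAD and then 0.934 (4 h), 0.923 (8 h) and 0.922 (24 h). A ratio keeps no signal level, so it does not show how abundant a transcript was, levels cannot be compared between genes, and markers cannot show whether a cell type was present. In whole testis fewer cells of a type and less RNA per cell cannot be told apart. A change below is the log2 difference between the ratios of 2 arrays, 1 on this scale is 2-fold, and a gene with several probe sets takes their mean. With 1 sample per group there is no replicate and no test between groups. As a measure of error, probe sets designed on different sequences of one gene spread around its mean change with an SD of 0.43 at 4 h, 0.52 at 8 h and 0.57 at 24 h against VAD, over 1083 genes. This noise of 1 probe set leaves out the spread between animals. The comparisons at 4, 8 and 24 h share the VAD array. All 9 spike-in controls were lower after retinol. Scaling the arrays on them would raise every change by 0.55, 0.50 and 0.62 at these times. Smaller negative values therefore keep their sign only as deposited. For 3 control transcripts the 5′ probe sets also rose against the 3′ ones, by a mean of 0.71, 1.09 and 1.01 at these times. Where the probe sets below lie along their transcripts was not examined. The part of this shift in their values, those of single probe sets included, was not tested.

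Microtubules are hollow filaments built from pairs of alpha- and beta-tubulin. The collapsin response mediator proteins (CRMPs, also called dihydropyrimidinase-like proteins) bind tubulin and steer microtubule growth, and they are best known from growing axons, where semaphorins signal through them. In the testis, microtubules support the tall Sertoli cells, form the meiotic spindle and the manchette that shapes the sperm head, and make up the axoneme of the sperm tail. Axonemal dyneins are the motors that bend that tail, and Dnah8 is a heavy chain of its outer arm with strong expression in male germ cells. Deficient seminiferous tubules hold mainly Sertoli cells and early germ cells, and retinol lets spermatogenesis start again.

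The promoters of the 3 genes with the lowest values are shown because these genes head the set and did not follow one time course. Each is the 250 bases before the annotated transcript start in the RefSeq annotation of build GRCr8, with matches in capitals: Dpysl4 at chr1:203312463-203312712 (plus strand), Tuba4a at chr9:84162585-84162834 (minus strand) and Dnah8 at chr20:8694345-8694594 (plus strand).
Dpysl4: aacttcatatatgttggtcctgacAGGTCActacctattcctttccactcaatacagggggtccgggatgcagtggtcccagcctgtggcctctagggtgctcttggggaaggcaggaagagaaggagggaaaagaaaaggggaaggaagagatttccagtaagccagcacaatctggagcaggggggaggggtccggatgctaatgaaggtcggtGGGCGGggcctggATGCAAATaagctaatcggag
Tuba4a: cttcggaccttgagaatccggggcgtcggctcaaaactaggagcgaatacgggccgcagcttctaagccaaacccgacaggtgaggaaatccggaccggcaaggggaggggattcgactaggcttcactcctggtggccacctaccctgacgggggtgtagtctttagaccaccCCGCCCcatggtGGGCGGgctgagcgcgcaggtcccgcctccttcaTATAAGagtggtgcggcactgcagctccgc
Dnah8: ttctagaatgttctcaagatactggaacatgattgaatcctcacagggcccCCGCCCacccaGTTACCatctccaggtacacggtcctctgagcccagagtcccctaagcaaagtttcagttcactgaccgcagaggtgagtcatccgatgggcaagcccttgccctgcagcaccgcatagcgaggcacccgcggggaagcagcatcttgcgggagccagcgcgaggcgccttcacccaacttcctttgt

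On both strands, 6 motifs were searched, and none of them was found in all 3 windows except the GC box. The nuclear receptor hexamer (AGGTCA or GGGTCA), the element that retinoic acid receptors bind in pairs, matched once in Dpysl4, with its first base 226 bases before the start. It did not match in the windows of Tuba4a or Dnah8, and 23.9% of 33469 promoter windows of this length hold it. The octamer ATGCAAAT, the binding word of POU factors, lay 21 bases before the Dpysl4 start and is in 1.56% of windows. The GC box (GGGCGG, in 30.5% of windows) matched once in Dpysl4, 2 times in Tuba4a and once in Dnah8. A TATA core (TATAAA or TATAAG, in 18.0%) lay 30 bases before the Tuba4a start, and an RFX core word (GTTGCC or GTTACC, in 15.4%) 188 bases before that of Dnah8. The CCAAT box (CCAAT, in 34.0%) matched in none of the 3. A match is a description of these letters and not a site shown to be bound.

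Dpysl4 (CRMP3) was the lowest of the CRMP genes and, at 24 h, the lowest of all 4736 genes. Its probe set U52103_at had ratios of 1.14 in VAD and then 1.03 (4 h), 0.343 (8 h) and 0.0703 (24 h). The VAD and 4 h values lie close together, and the 8 h and 24 h values lie below both. The 4 h change was -0.14, the 8 h change -1.73 (3.31-fold lower) and the 24 h change -4.01 (16.1-fold lower). The later steps were -1.58 from 4 h to 8 h and -2.29 from 8 h to 24 h, where the noise of 1 probe set was 0.32 and 0.31. At 24 h only 2 of the 8799 probe sets of the table had a lower ratio. A single probe set reads Dpysl4, so no second sequence bears on its value.

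Crmp1 and Dpysl3 (CRMP4) were lower from 8 h on, short of 2-fold. Crmp1 had ratios of 0.987 in VAD and then 0.927 (4 h), 0.567 (8 h) and 0.619 (24 h), and Dpysl3 of 0.883, 0.778, 0.581 and 0.558. In both genes the 8 h and 24 h arrays lie together below the VAD and 4 h arrays. Crmp1 was at -0.09, -0.80 and -0.67 at the 3 times, and Dpysl3 at -0.18, -0.60 and -0.66. At 24 h these values lie just past the noise SD of 0.57, and spike-in scaling would bring them to -0.05 and -0.04. By rank they stood 211th and 537th from the lowest of 4736 genes at 8 h and 473rd and 496th at 24 h. From 4 h to 8 h Crmp1 was at -0.71, 107th from the lowest, where the noise of 1 probe set was 0.32, and Dpysl3 at -0.42, 322nd from the lowest. The gap between Dpysl4 and Dpysl3 at 24 h was -3.35 with a noise SD of 0.80 for the difference of 2 probe sets, and that between Dpysl4 and Crmp1 -3.34. Because Dpysl4 was picked for being low, its gaps to the other 2 genes test nothing. The gap between Dpysl3 and Crmp1 was 0.01.

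Dpysl2 (CRMP2), the most studied of the family in axon growth, was read by 2 probe sets that went opposite ways. The probe set Z46882cds_at, made from a coding sequence, had ratios of 0.944 in VAD and then 1.57 (4 h), 1.26 (8 h) and 1.66 (24 h). The probe set rc_AA875444_at, made from an expressed sequence tag, had ratios of 0.974, 0.632, 0.464 and 0.557. The first lies above VAD on all 3 retinol arrays and the second below it. At 8 h against VAD the first was at 0.41 and the second at -1.07, past 2-fold lower. At 24 h they stood at 0.82 and -0.81, so the gene's mean of 0.01 describes neither. Between retinol arrays they moved alike, at -0.33 and -0.45 from 4 h to 8 h and at 0.41 and 0.26 from 8 h to 24 h. On the same arrays the control probe sets at the 5′ and 3′ ends of 3 transcripts also parted, the 5′ end exceeding the 3′ end by 0.71, 1.09 and 1.01 at 4, 8 and 24 h against VAD. Where along the transcript the Dpysl2 probe sets lie was not examined, and the part of this difference in the result was not tested. Dpys, the dihydropyrimidinase gene that gave the family its other name, was at 0.23, 0.25 and 0.27, and Dpysl5 had no probe set annotated with it alone.

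**Figure D1:**
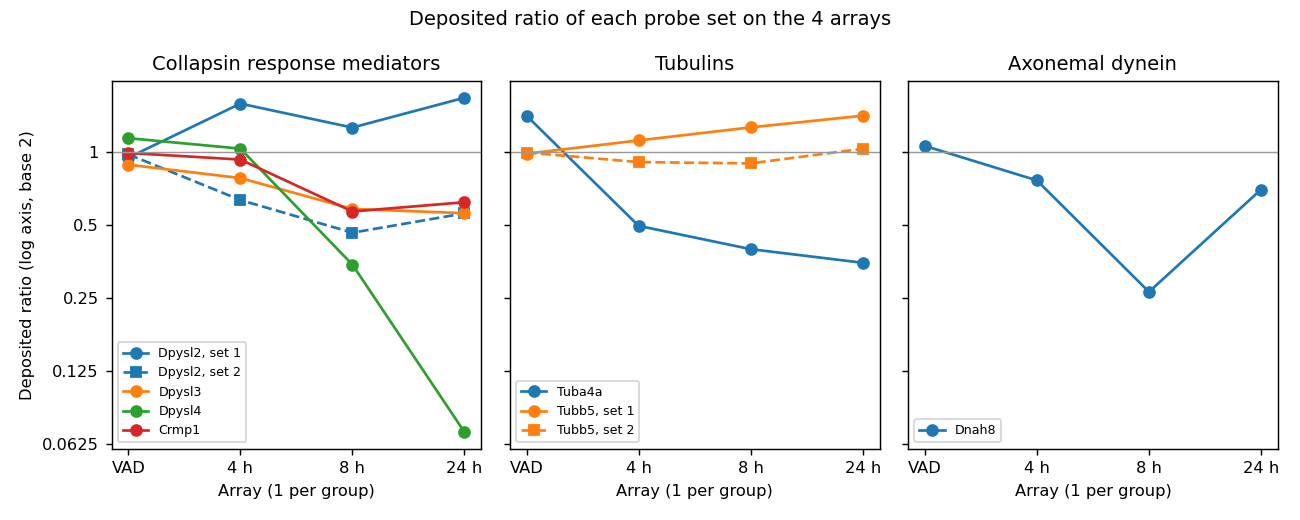
Deposited ratio (vertical, log axis) of the 9 probe sets on the 4 arrays (horizontal, 1 sample per group), with the grey line at a ratio of 1. Dpysl4 drops to 0.0703 at 24 h, Tuba4a is already at 0.495 at 4 h, Dnah8 is lowest at 8 h with 0.265, and the 2 probe sets of Dpysl2 (set 1 is Z46882cds_at) lie on opposite sides of 1 after retinol.

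Tuba4a, an alpha-tubulin gene whose product ends without the terminal tyrosine that other alpha-tubulins carry, was low from the first retinol array. Its probe set rc_AA800948_at had ratios of 1.40 in VAD and then 0.495 (4 h), 0.397 (8 h) and 0.349 (24 h). The 3 retinol arrays lie close to each other and far below VAD. The change was -1.50 at 4 h (2.83-fold lower), -1.82 at 8 h and -2.01 at 24 h (4.02-fold lower), while the steps between retinol arrays were -0.32 and -0.19. The gene stood 12th from the lowest at 4 h and 5th at both 8 h and 24 h. Part of the distance lies in the VAD value itself, since only 201 of 8799 probe sets had a VAD ratio above that of Tuba4a. Set against a ratio of 1 in place of the VAD column, Tuba4a was at -1.01, -1.33 and -1.52. A single probe set reads Tuba4a, so no second sequence bears on its values, and all 3 changes against VAD share 1 VAD value.

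Tubb5, a beta-tubulin gene expressed in most tissues, stayed near its VAD ratio. Its probe set AB011679_at had ratios of 0.980 in VAD and then 1.11 (4 h), 1.26 (8 h) and 1.40 (24 h), and rc_AA860030_s_at of 0.991, 0.905, 0.894 and 1.03. The first lies above its VAD value on every retinol array and the second within 10% of 1 on 3 of the 4 arrays. Their mean was at 0.03, 0.11 and 0.29 at the 3 times, each below the noise SD of 1 probe set. Tuba4a lay apart from Tubb5 by -1.53, -1.93 and -2.29 at the same times, where the noise SD of such a gap was 0.52, 0.64 and 0.69. Because Tuba4a was picked for being low, these gaps test nothing.

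The alpha-tubulin genes Tuba1a, Tuba1b and Tuba1c are so alike that some probe sets read several of them. The probe set V01227_s_at, given to Tuba1a and Tuba1b together, had ratios of 1.18 in VAD and then 0.704 (4 h), 0.638 (8 h) and 0.727 (24 h). The probe set J00797cds_s_at, given to Tuba1a with 3 other symbols, had ratios of 0.963, 0.822, 0.754 and 0.777. Both were lower on all retinol arrays than in VAD, and neither reached 2-fold, with 24 h changes of -0.69 and -0.31. Which of the named genes they follow cannot be told apart. Tuba1b on a probe set of its own was at -0.44, -0.70 and -0.64, on the same side and also short of 2-fold. Of the other tubulins measured, the gamma-tubulin gene Tubg1, needed to start new microtubules, was at -0.38, -0.51 and -0.27. Tubb2b was at -0.07, 0.25 and 0.33, from probe sets at -0.28 and 0.94 at 24 h.

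Dnah8 was low on 1 array, that at 8 h. Its probe set D26499_at had ratios of 1.06 in VAD and then 0.761 (4 h), 0.265 (8 h) and 0.698 (24 h). The 4 h and 24 h values lie near each other below VAD, and the 8 h value stands apart from all others. The change against VAD was -0.47, -1.99 (3.98-fold lower) and -0.60, so the gene stood 4th from the lowest at 8 h but 569th and 632nd at 4 h and 24 h. Spike-in scaling turns the 4 h and 24 h values to 0.08 and 0.03 and leaves the 8 h value 2-fold lower. The 8 h array lay -1.52 from the 4 h array, and the 24 h array lay 1.40 above the 8 h array (2.63-fold higher), the 4th largest positive step of all genes. All of this rests on a single probe set and 1 sample.

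The other 7 axonemal dynein heavy chain genes with probe sets had no such dip. At 8 h they ranged from -0.50 (Dnah5, another outer arm heavy chain) to 0.87 (Dnah7, an inner arm heavy chain) around a median of -0.20, where Dnah8 was at -1.99. From 8 h to 24 h they ranged from -0.61 to 0.24, where Dnah8 was at 1.40. None of the 7 passed 2-fold in any of the 5 comparisons. Because Dnah8 was picked for being low, its distance from these 7 genes tests nothing. The ratios do not show how strongly any of them was expressed. Spermatid marker genes took another course. The 9 measured of 10 had a median of 0.74 at 4 h, with all 9 above VAD, where Dnah8 was at -0.47. Their median was -0.37 at 8 h and -0.49 at 24 h. The step from 4 h to 8 h was downward in both, at a median of -1.12 for the spermatid genes. In it 6 of the 9 were at least 2-fold lower, beside 0.929% of all genes. The transition protein gene Tnp2 was at -1.94 in that step, the sperm tail gene Akap4 at -1.25 and the mitochondrial capsule gene Smcp at -1.19. Dnah8 then stood 1.40 higher at 24 h than at 8 h, while the spermatid median in that step was -0.16. The rise at 4 h and the later fall were not particular to spermatid genes. The 5 measured pachytene spermatocyte markers had medians of 0.66, -0.17 and -0.41 at the 3 times, with none below VAD at 4 h. From 4 h to 8 h all 5 stepped down, 2 of them by at least 2-fold. The 4 markers of differentiating spermatogonia and meiotic entry had medians of 0.42, -0.18 and 0.33, and the 2 of undifferentiated spermatogonia 0.22, -0.02 and -0.11. The part of these germ cell genes' shifts in the Dnah8 value was not tested.

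**Figure D2:**
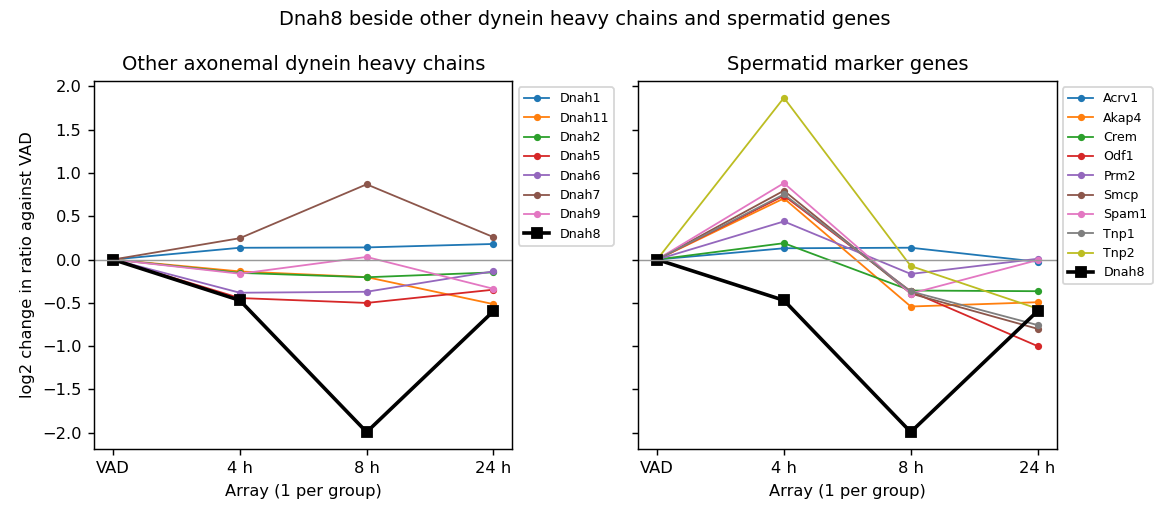
log2 change in deposited ratio against VAD (vertical) on the 4 arrays (horizontal, 1 sample per group) for Dnah8 in black beside the other axonemal dynein heavy chain genes (left) and the spermatid marker genes (right). Dnah8 is at -1.99 at 8 h, the heavy chains range from -0.50 to 0.87 there, and all 9 spermatid genes lie above VAD at 4 h. Dnah8 was picked for being low, so its distance from the others tests nothing.

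Counted at 2-fold, 1 of the 7 measured genes was lower at 4 h (Tuba4a), 3 at 8 h (Dpysl4, Tuba4a and Dnah8) and 2 at 24 h (Dpysl4 and Tuba4a), and none was higher. Over all genes 1.25%, 1.88% and 2.64% were 2-fold lower at these times and 1.41%, 2.83% and 3.27% higher. From 4 h to 8 h 2 of 7 were lower (Dpysl4 and Dnah8) beside 0.929% of all genes, and 0.718% of all genes were higher. From 8 h to 24 h 1 was lower (Dpysl4) and 1 higher (Dnah8) beside 0.655% and 0.507%. Because 3 genes were taken for being low, nothing is read from the distance between these shares. At 8 h the gene just inside the threshold was Dpysl4 at -1.73 and the next outside it Crmp1 at -0.80. At 24 h they were Tuba4a at -2.01 and Crmp1 at -0.67, and at 4 h Tuba4a at -1.50 and Dnah8 at -0.47. The median of the 7 was -0.14, -0.80 and -0.66 at the 3 times and that of all genes -0.09, -0.12 and -0.12. Relative to the latter, Dpysl4 was at -3.89 and Tuba4a at -1.89 at 24 h, and Dnah8 at -1.88 at 8 h. Scaled on the spike-ins, 0.232%, 0.317% and 0.274% of all genes were 2-fold lower and 9.42%, 10.3% and 15.7% higher, and the 4, 8 and 24 h counts of the 7 genes that were lower became 0, 3 and 2, with Tuba4a at -0.95 at 4 h.

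**Figure D3:**
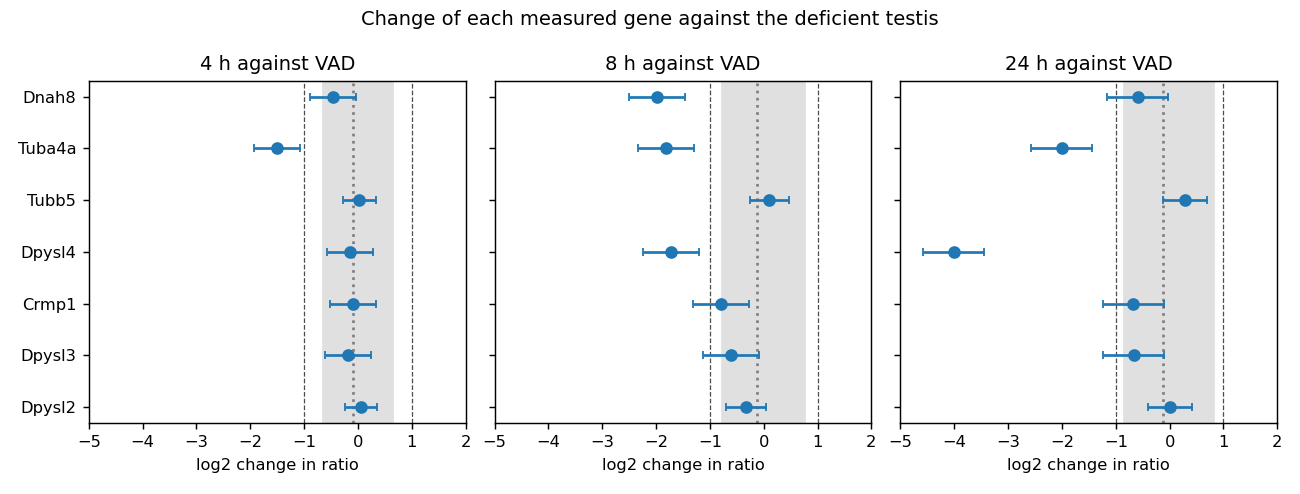
log2 change in deposited ratio (horizontal) at 4, 8 and 24 h against VAD for the 7 measured genes, with bars of 1 SD of probe set noise for the mean of that gene's probe sets. The grey band spans the 5 to 95% range of all 4736 genes, the dotted line is their median and the dashed lines mark 2-fold; Tuba4a lies left of the band at all 3 times, Dpysl4 at 8 h and 24 h, Dnah8 at 8 h, and Crmp1 at -0.80 just past the band's edge of -0.77 at 8 h.

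Other genes came near to these time courses, judged by the Euclidean distance over the 3 log2 changes against VAD. For Tuba4a the nearest was Hsd17b8, a mitochondrial fatty acid and steroid dehydrogenase gene, at -1.10, -1.64 and -1.92 and a distance of 0.45. It was followed by Strn3 (0.67), the bone morphogenetic protein gene Bmp3 (0.71), the lymphocyte and epididymal surface gene Cd52 (0.80) and the mitochondrial carrier gene Sfxn4 (0.82). For Dnah8 the nearest was the serotonin receptor gene Htr5b at -0.48, -1.54 and -0.50 (distance 0.47). Plek of leukocytes and platelets (0.61), the BMP antagonist gene Nog (0.64), the sperm surface gene Adam3a (0.69) and the arginase gene Arg2 (0.71) came next. Adam3a was at 0.09 at 4 h and -1.72 at 8 h. Dpysl4 had no near neighbour. The closest gene, the secretoglobin gene Scgb2a1, lay 1.84 away at -0.02, -1.27 and -2.24, and Cd52 (1.92), the proteoglycan gene Spock2 (1.99), the GABA receptor gene Gabra4 (2.21) and Hsd17b8 (2.30) lay farther. Dpysl4 was picked for being low and was the lowest gene at 24 h, so its distance from other genes tests nothing. Likeness over 3 changes that share 1 VAD array says nothing of shared function.

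**Figure D4:**
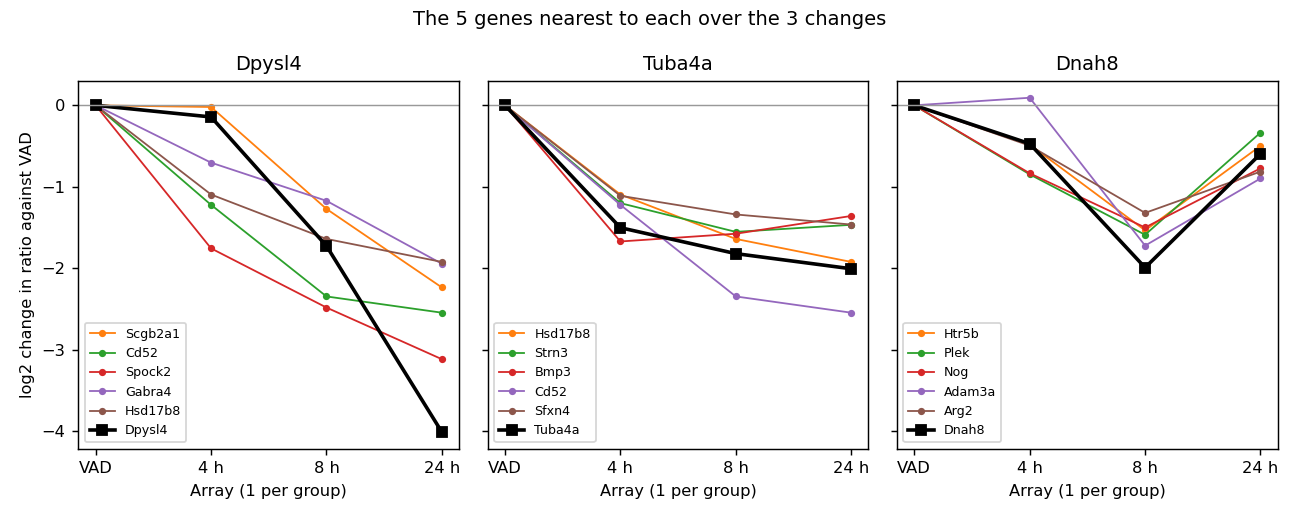
log2 change in deposited ratio against VAD (vertical) on the 4 arrays (horizontal, 1 sample per group) for Dpysl4, Tuba4a and Dnah8 in black and the 5 genes nearest to each in colour. Hsd17b8 runs 0.45 from Tuba4a and Htr5b 0.47 from Dnah8, whereas the closest gene to Dpysl4 lies 1.84 away and no neighbour reaches its -4.01 at 24 h. Dpysl4 was picked for being low, so this distance tests nothing.

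By gene mean, none of the other measured microtubule genes was 2-fold lower than VAD at any time outside the sperm tail and neuronal lists. Single probe sets of Dync1li2, Klc1 and Kifc3 were, beside others of the same gene above 0 at 24 h. The 4 of Dync1li2 ranged from -1.07 to 0.57 at 24 h. The 3 of Klc1 ranged from -1.02 to 0.25 at 8 h and from -1.29 to 0.59 at 24 h. Of the 16 other dynein and dynactin genes, 2 were 2-fold higher at 8 h and 1 at 24 h, beside 2.83% and 3.27% of all genes. The list medians were -0.09, -0.20 and -0.17. Dync2h1, the motor that returns cargo along cilia, was at 0.82, 1.42 and 1.62, and the dynactin gene Dctn4 at 0.94, 1.41 and 0.69. The cytoplasmic dynein intermediate chain gene Dync1i1 was at -0.91 at 24 h, short of 2-fold. The 11 kinesin genes are those of motors that mostly run the other way. By gene mean, the mitotic spindle kinesin gene Kif11 was the 1 past 2-fold against VAD, at 0.81, 1.49 and 1.31. It passed at 8 h and 24 h, beside the same 2.83% and 3.27% of all genes. Kifc3 was 2-fold lower at 8 h than at 4 h, at -1.06 from probe sets at -1.34 and -0.77. At 24 h against VAD it was at -0.82 from probe sets at -1.65 and 0.01, which do not agree.

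In the next list 17 genes for microtubule associated or destabilising proteins were measured. By gene mean, Mapre1 (EB1, which tracks growing microtubule ends) was the 1 past 2-fold, at 1.01, 1.11 and 0.97. It passed at 4 h and 8 h, where 1.41% and 2.83% of all genes were 2-fold higher. The 3 probe sets of Pafah1b1 ranged from -0.36 to 1.18 at 8 h and from -0.25 to 1.08 at 24 h. Stmn1, the gene of the tubulin-sequestering protein stathmin, was at -0.32, -0.76 and -0.74. The doublecortin-like kinase gene Dclk1 was at -0.99 at 24 h, the tubulin deacetylase gene Hdac6 at -0.68 and the autophagy and microtubule light chain gene Map1lc3a at -0.81. The list medians were -0.17, -0.06 and -0.08, near those of all genes.

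Of 18 measured genes of semaphorin signalling and of kinases and GTPases that act on CRMPs, the ligand gene Sema4b was the 1 past 2-fold, at 1.14, 2.33 and 2.10. Over all genes 1.41%, 2.83% and 3.27% were 2-fold higher at these times. The semaphorin co-receptor gene Nrp1 was at -0.85, -0.80 and -0.83. Of the GTPases, Rhoa was at 0.55, 0.76 and 0.98 and Rac1 at -0.52, -0.56 and -0.67. Rock1, a kinase downstream of Rhoa, was at 0.80 at 24 h from probe sets at -0.35 and 1.95. The list medians were -0.12, -0.15 and -0.19.

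**Figure D5:**
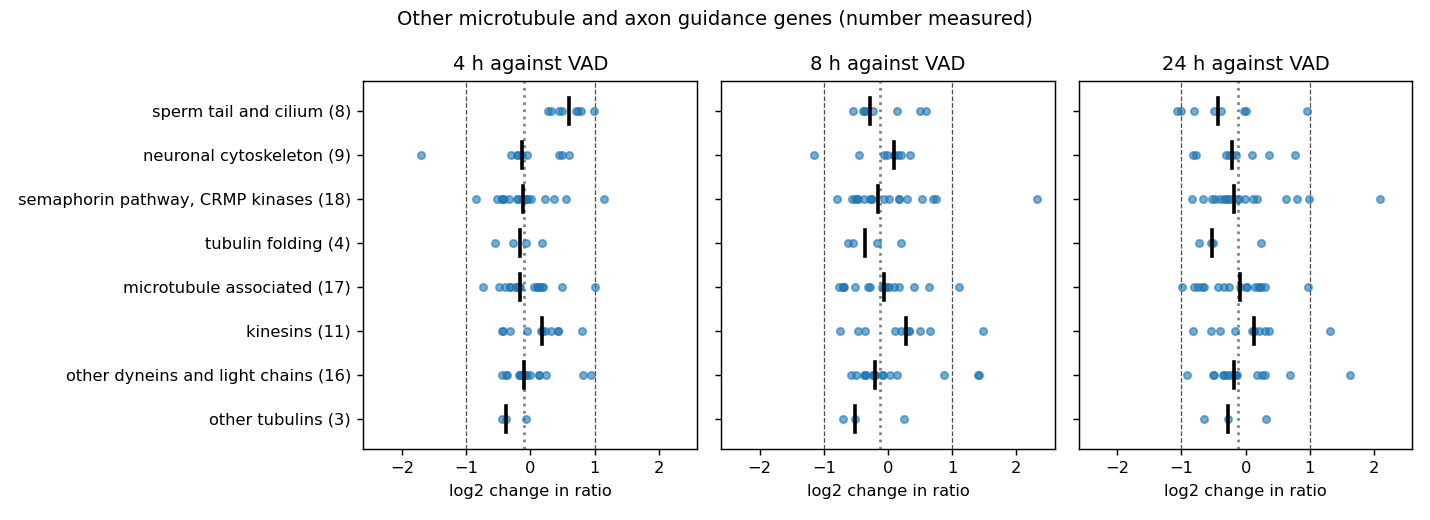
log2 change in deposited ratio (horizontal) at 4, 8 and 24 h against VAD for each gene (points) of the lists on the vertical axis, with the number measured in brackets and the list median as a black bar. The dotted line is the median of all genes and the dashed lines mark 2-fold; at 8 h Sema4b is at 2.33, and the sperm tail list moves from a median of 0.60 at 4 h to -0.28 at 8 h.

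The sperm tail and cilium list, nearest in function to Dnah8, had 8 measured members of 24. Their median was 0.60 (4 h), -0.28 (8 h) and -0.43 (24 h). At 8 h 3 of the 8 were 2-fold lower than at 4 h, beside 0.929% of all genes. The outer dense fibre genes Odf1 and Odf2 were the 2 at least 2-fold lower at 24 h against VAD, beside 2.64% of all genes. Odf1 lay at the threshold itself and Odf2 at -1.07. Foxj1, the master regulator gene of motile cilia, was at 0.45, -0.23 and -0.38, and Tsga10 of the sperm tail stood on the other side, at 0.50 at 8 h and 0.96 at 24 h. Of these genes Odf1, Akap4 and Smcp also stand in the spermatid list.

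Markers of the other testis cells were read on the same arrays. The median of the 7 measured Leydig genes was 0.19 (4 h), 0.12 (8 h) and -0.59 (24 h). At 24 h, when Dpysl4 was lowest, 3 were lower and 1 higher by 2-fold, beside 2.64% and 3.27% of all genes. The 13 Sertoli genes had medians of 0.33, 0.11 and 0.15. Of these genes 2 at 8 h and 3 at 24 h were higher by 2-fold, beside 2.83% and 3.27% of all genes, and none was lower. Of the 3 endothelial genes, the VEGF receptor gene Kdr was 2-fold lower at all 3 times, at -1.40, -1.15 and -1.35. Over all genes 1.25%, 1.88% and 2.64% were 2-fold lower at these times. Pecam1 was at 0.39, 0.48 and 0.65 and Vwf at -0.22, 0.43 and 0.47. Neither macrophage gene passed 2-fold. The 5 peritubular myoid genes had medians of -0.25, -0.39 and -0.43, with none past 2-fold by gene mean. The 6 neuron and Schwann cell genes, which include types that express CRMPs, had medians of -0.20, -0.23 and -0.05. Of them 1 was 2-fold lower at 4 h and at 8 h, beside 1.25% and 1.88% of all genes, and none at 24 h. Ratios give no summed level for these lists, and their part in the values of Dpysl4, Tuba4a and Dnah8 was not tested.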

How the data were processed

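The values deposited by the authors are linear ratios per probe set of the Rat Genome U34 array, for 8799 probe sets. Per the submitters' processing notes, GCOS and MAS5 (Affymetrix software) were used; no version is named. The sources used here do not state the reference of the ratios, their scaling or any pooling. Of the probe sets, 59 are controls, 7006 carry 1 gene symbol in the platform annotation, 308 several and 1426 none listed. Symbols were updated through Entrez IDs, with 6985 matched in RefSeq's GRCr8 gene table. Ratios were put on the log2 scale and averaged per gene (pandas 2.3.3), and genes past 2-fold were counted. Noise is the pooled SD within genes between probe sets of different sequences. The calculation was tested on simulated data with a smaller noise SD than these arrays show, so that test gives no error rate for them. The genes and lists were chosen with earlier results of these data known. All measured genes of the set are named. Of other lists, genes past 2-fold against VAD and up to 4 others with the largest 24 h change could be named, and not all of these are printed. Dnah7 falls outside that rule and was chosen after its values were seen, as were the motifs. Alternatives were the highest-ratio probe set of a gene, centring on the median of all genes, spike-in scaling, a reference of 1, probe sets with several symbols, a 1.5-fold threshold and counting of probe sets. The number of arrays limits the precision.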

Additional observations from a re-analysis of the deposited data

How the results depend on the processing

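Counts of genes past 2-fold kept their values, or moved by no more than 1.5 times, under all alternatives but 2. Spike-in scaling left 0 genes 2-fold lower at 4 h in place of 1, with Tuba4a at -0.95, and the 1.5-fold threshold gave 5 genes lower at 8 h and 5 at 24 h in place of 3 and 2, where 12.3% and 14.1% of all genes were lower by that much. Of the single values, 14 of 35 moved by more than the noise of 1 probe set under spike-in scaling, all upward. That count says nothing of single genes, because the scaling shifts every gene of a comparison by the same amount. The shift passed the noise SD at 4 h (0.55 beside 0.43) and 24 h (0.62 beside 0.57) but not at 8 h (0.50 beside 0.52). Against a reference of 1, 1 value moved so far (Tuba4a at 4 h, -1.01). With the highest-ratio probe set 3 did so, all of Dpysl2 (0.74, 0.41 and 0.82 at 4, 8 and 24 h). None of the 2-fold differences changed sign. No paired analysis was possible because each group is 1 sample. For the same reason leaving out a replicate could not be tried, and signal over background was not kept, so its limit is unknown.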

Other observations

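Among genes of the neuronal cytoskeleton, the neurofilament gene Nefm was at -1.70, -1.15 and -0.82 at 4, 8 and 24 h against VAD. By gene mean it was the 1 of 9 measured past 2-fold, beside 1.25% and 1.88% of all genes lower at 4 h and 8 h. Single probe sets of 2 others also passed it. Those of Nes were at -0.18 and 1.16 at 4 h, and the 4 of Snap25 ranged from -1.42 to 0.43 at 24 h. Nefh was at -0.77 at 24 h, and Uchl1, a deubiquitinase gene of neurons and spermatogonia, was at 0.77 there from 3 probe sets between 0.60 and 0.96. Of the tubulin folding genes, 4 of 18 were measured. The tubulin cofactor gene Tbce was at -0.55, -0.62 and -0.73, the chaperonin subunit gene Cct3 at -0.26, -0.55 and -0.55, and the prefoldin gene Pfdn2 at -0.50 at 24 h. Another chaperonin subunit gene, Cct6a, went the other way, at 0.19, 0.20 and 0.25. None of these 4 reached 2-fold.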
